A study of Cricetulus griseus with 6 samples.

Results

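SNARE proteins, the exocyst and the synaptotagmin-like proteins carry out the last steps of vesicle traffic, in which a vesicle is held at its target membrane and fused with it. Their genes were taken from the deposited tables by symbol: syntaxins, *Vamp*, *Vti1* and *Bet1* genes, the family of *Snap25*, *Ykt6*, *Sec22b*, *Nsf* with *Napa* and *Napg*, syntaxin-binding proteins, *Exoc* and *Sytl* genes. The rule found 59 genes among 27873 entries, each on 1 row. The rule uses symbols and no expression values, though it was set with earlier results of these data known. They are 32 SNAREs, 3 genes of the disassembly machinery, 7 syntaxin-binding proteins, 12 exocyst or exocyst-like genes and 5 synaptotagmin-like proteins.

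RNA-Seq was performed on CHO-T cells, a Chinese hamster ovary line that carries mouse T-cadherin (*Cdh13*) cDNA from a retrovirus under puromycin selection. Cells were transfected with negative control siRNA (n = 3 libraries) or with siRNA against *Xbp1* (n = 3 libraries) and harvested on the second day after transfection, and both conditions carried the transgene. The experiment was done to look for pathways that lower extracellular vesicle release when IRE1α is activated by the loss of XBP1. The study's statistics section speaks of independent biological experiments in general, while neither it nor the labels say whether these libraries came from separate cultures. The p-values therefore measure the spread between these libraries, which may be technical, and only 1 *Xbp1* siRNA was used.

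A SNARE on the vesicle (R-SNARE) zippers with SNAREs of the target membrane (Q-SNAREs, among them syntaxins and SNAP proteins) and pulls the membranes together. NSF and its adaptors, the α- and γ-SNAP proteins, then take the used complexes apart, while Munc18-type proteins bind syntaxins and the exocyst tethers secretory vesicles at the plasma membrane. Synaptotagmin-like proteins bind the GTPase RAB27 and dock vesicles at the plasma membrane. Exosomes leave the cell when multivesicular endosomes fuse with the plasma membrane, so these proteins stand at the exit of that route.

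The silenced gene was checked first. *Xbp1* had 26.0, 26.2 and 28.4 FPKM with control siRNA and 2.18, 2.11 and 1.39 FPKM after silencing, so that 7.05% of the control mean remained. FPKM counts sequenced fragments relative to the length of the transcript and to the size of the library. The FPKM column sums ran from 646651 to 666267 in the control libraries and from 593487 to 600986 after silencing, while the median log2 fold change over the 14361 genes tested was 0.01. Of 6 ovarian markers in the files, *Fshr* and *Lhcgr* were listed at 0 in all libraries and the summed level of the list reached at most 8.56 FPKM. Mesenchymal markers (*Vim*, *S100a6*, *Lgals1*, *Fn1*) summed to between 2686 and 2906 FPKM in the control libraries and between 1459 and 1528 FPKM after silencing. *S100a6* made up most of this sum and fell together with *Vim* and *Lgals1*, whereas *Fn1* rose, with log2 fold change 0.83 (limma, adjusted p = 2.15e-05). The 3 epithelial markers in the files summed to 1.83 to 2.16 FPKM against 4.59 to 5.79 FPKM, with *Krt18* at 0. Neuronal markers summed to at most 3.20 FPKM with *Chga* and *Scg2* at 0, and blood cell markers, nearly all from *Cd68*, to 5.18 to 6.25 FPKM against 6.99 to 8.80 FPKM, with *Ptprc* and *Cd3e* at 0. The part of these shifts in the results was not tested, and fewer cells of a type cannot be told apart from less RNA per cell.

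In control cells the fusion machinery spanned a wide range of levels. *Nsf*, the ATPase that recycles SNAREs, was the highest with 160 ± 1.85 FPKM (SD, n = 3). It was followed by *Sec22b*, an R-SNARE between ER and Golgi, with 119 ± 5.69 FPKM and by *Ykt6*, a lipid-anchored R-SNARE, with 79.1 ± 0.434 FPKM (SD, n = 3). Below these, *Stx4*, a plasma membrane syntaxin of many cell types, and the endosomal *Vti1b* had overlapping control libraries, and *Vamp3* was next with 62.3 ± 0.761 FPKM (SD, n = 3). These 6 genes had at least 50 FPKM in every control library. A control mean of at least 10 FPKM was found for 30 members and one between 1 and 10 FPKM for 17.

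**Figure D1:**
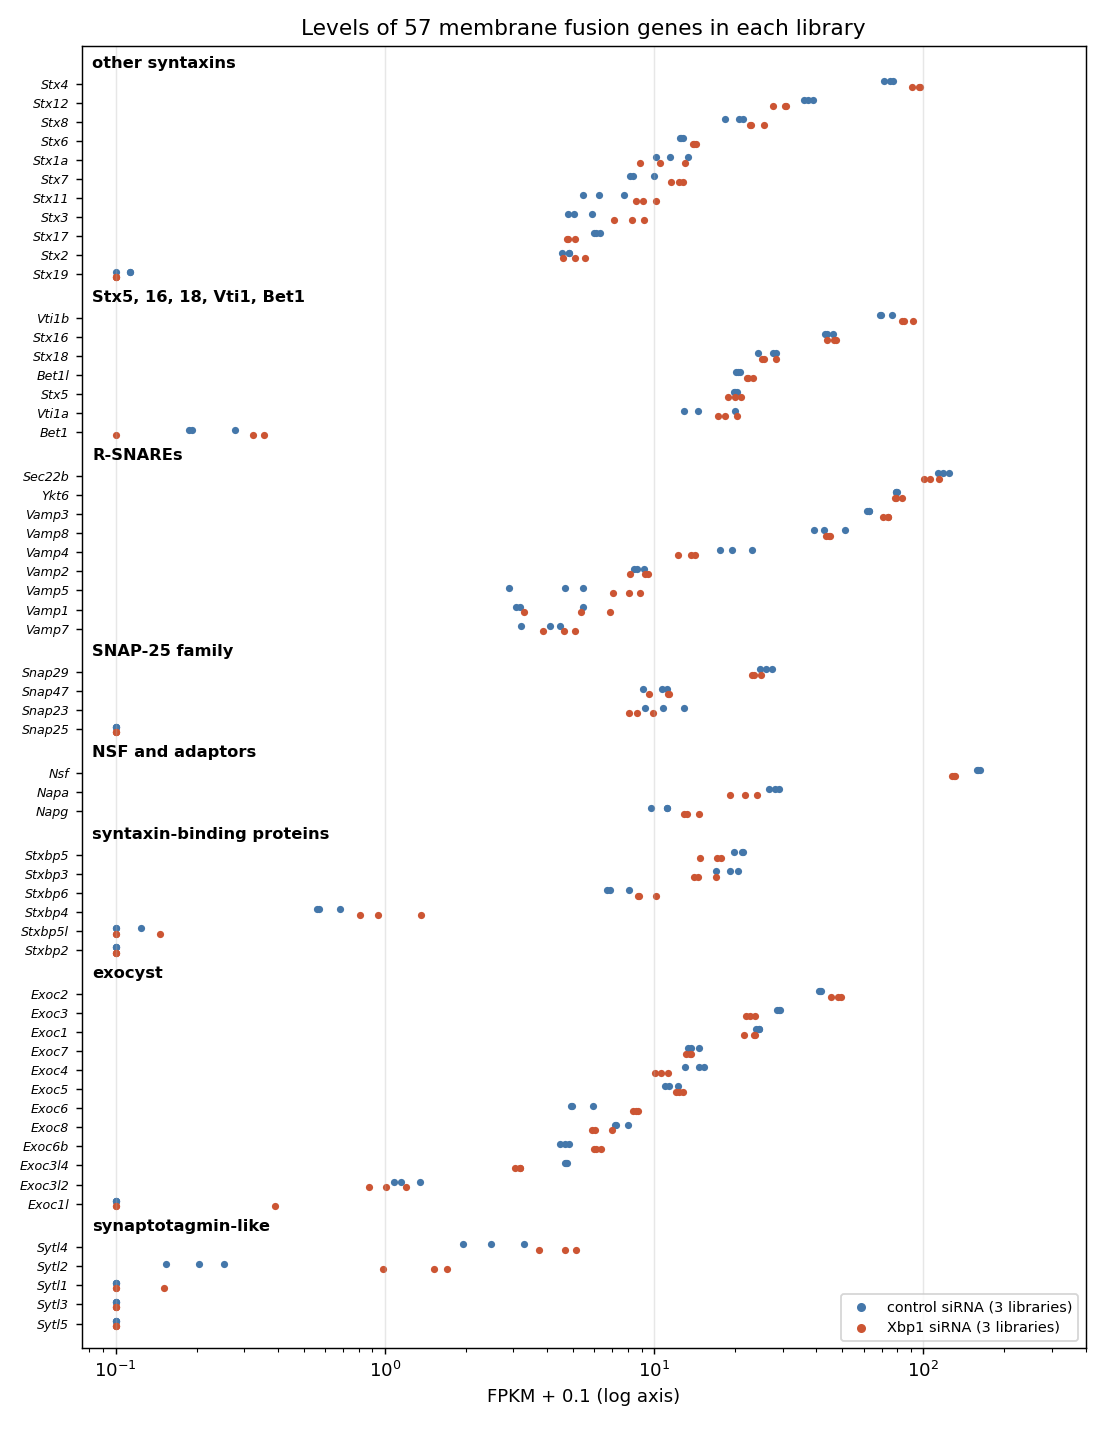
FPKM + 0.1 (horizontal log axis) of 57 members, by group, with 1 point per library (blue, control siRNA; red, *Xbp1* siRNA; 3 each). *Nsf* and *Sec22b* lie highest, and the genes at 0 sit at the left edge, at 0.1.

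Several members were not detected. *Snap25*, the neuronal SNAP, and *Stxbp2*, *Sytl3* and *Sytl5* were listed at 0 in all 6 libraries, and *Exoc1l* and *Sytl1* were above 0 in 1 library each, with *Xbp1* siRNA. The values of *Stx19* and *Stxbp5l* could be read as at most 2 reads in any library, the smallest whole numbers that fit. Few of their values were above 0, so multiples of these numbers remain possible. In all, 9 genes fell under the filter of a mean of 0.1 FPKM, which left 50 members tested. In contrast to *Snap25*, the neuronal syntaxin *Stx1a* was detected, with 11.6 ± 1.59 FPKM (SD, n = 3) in control cells. *Bet1*, a SNARE of ER-to-Golgi traffic, rested on 1, 1 and 2 reads with control siRNA and 3, 0 and 3 with *Xbp1* siRNA, whereas its relative *Bet1l* had 20.4 ± 0.318 FPKM (SD, n = 3) in control cells.

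Expression was compared with limma on log2(FPKM + 0.1), with adjustment by Benjamini-Hochberg over all genes tested, and a gene is said to have risen or fallen when its adjusted p was under 0.05. A gene was called when its log2 fold change was also at least 1 in size, the limits in the study's methods. Values of log2 fold change (log2FC, *Xbp1* siRNA against control siRNA) are on this scale, where differences between low values come out too small. By the stricter rule 1 member, *Sytl2*, was called higher and 0 were called lower, beside 2.69% and 2.5% of all genes tested. By adjusted p alone 17 of the 50 members rose and 10 fell, which is 34% and 20%, while 20.2% of all genes rose and 20.2% fell. Unadjusted p was under 0.05 for 19 higher and 12 lower members, beside 24.6% and 24.3% of all genes. The libraries did not overlap for 19 higher and 11 lower members, beside 26.1% and 25.8% of all genes. The median log2FC of the members was 0.06, and the median of its size was 0.29 against 0.27 for all genes. Changes were small, with 18 of the 27 members that rose or fell under 0.5 in size, and the summed level of all members was 1188 ± 6.56 FPKM with control siRNA and 1193 ± 2.82 FPKM with *Xbp1* siRNA (SD, n = 3). Genes that rose and genes that fell stood side by side within most groups.

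**Figure D2:**
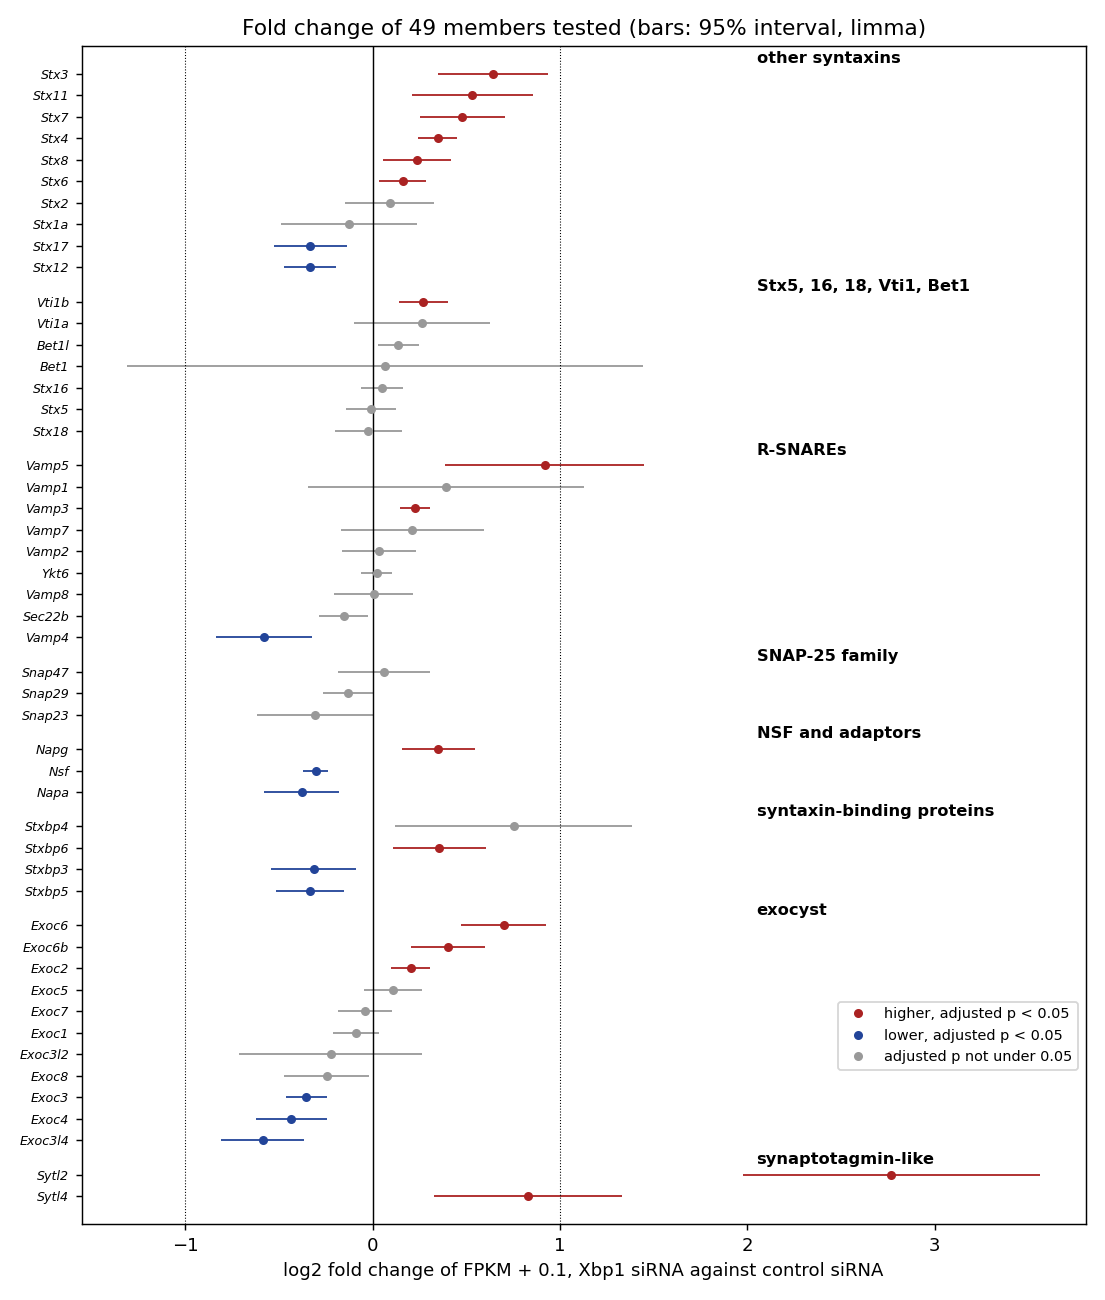
Log2 fold change of FPKM + 0.1 (horizontal axis) of 49 members tested, by group, with 95% intervals from limma (red, risen; blue, fallen; grey, adjusted p of 0.05 or more; dotted lines at −1 and 1). Only *Sytl2* lies beyond 1, and red and blue points occur together among the syntaxins other than *Stx5*, *Stx16* and *Stx18*, R-SNAREs, *Nsf* with its adaptors, syntaxin-binding proteins and exocyst genes.

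The largest change among the members was that of *Sytl2*, and both synaptotagmin-like genes tested rose, where 20.2% of all genes did. *Sytl2*, which encodes a RAB27 effector, had 0.154, 0.0546 and 0.105 FPKM with control siRNA and 1.598, 0.888 and 1.42 FPKM with *Xbp1* siRNA. The low values fell on whole multiples of a step, so they could be read as 3, 1 and 2 reads with control siRNA and as 32, 17 and 32 reads after silencing. Per unit of depth this is a ratio of 12.4 (95% interval 5.48 to 34.9, exact, for counting error only). *Sytl2* was thus close to absent in control cells and every silenced library was above every control library. Its log2FC was 2.77 (limma, standard error [SE] 0.34, adjusted p = 5.71e-04), but a pseudocount of 1 gave 1.05 and one of 0.01 gave 3.58. *Sytl4*, which encodes granuphilin, another RAB27 effector, had 3.19, 2.38 and 1.84 FPKM with control siRNA and 5.02, 3.64 and 4.56 FPKM with *Xbp1* siRNA. The conditions did not overlap, though the gap between them was narrow. Its log2FC was 0.83 (limma, SE 0.21, adjusted p = 0.0176), and leaving out 1 library moved it between 0.65 (without control replicate 3) and 1.03 (without control replicate 1). It did not pass without *Xbp1* siRNA replicate 1 (adjusted p = 0.0624) or replicate 3 (adjusted p = 0.0579).

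GTPases known to bind synaptotagmin-like proteins did not move together. Both *Rab27* genes were weakly expressed and rose. *Rab27b* had 0.592 ± 0.125 FPKM with control siRNA and 1.74 ± 0.0770 FPKM with *Xbp1* siRNA (SD, n = 3), with log2FC = 1.43 (limma, adjusted p = 0.00115). *Rab27a* had 0.945 ± 0.173 against 1.58 ± 0.136 FPKM (SD, n = 3), with log2FC = 0.70 (limma, adjusted p = 0.0253). *Rab8a*, which encodes another GTPase bound by granuphilin, was far more abundant and fell from 43.8 ± 0.537 to 22.7 ± 2.75 FPKM (SD, n = 3), with log2FC = −0.95 (limma, adjusted p = 1.14e-04).

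**Figure D3:**
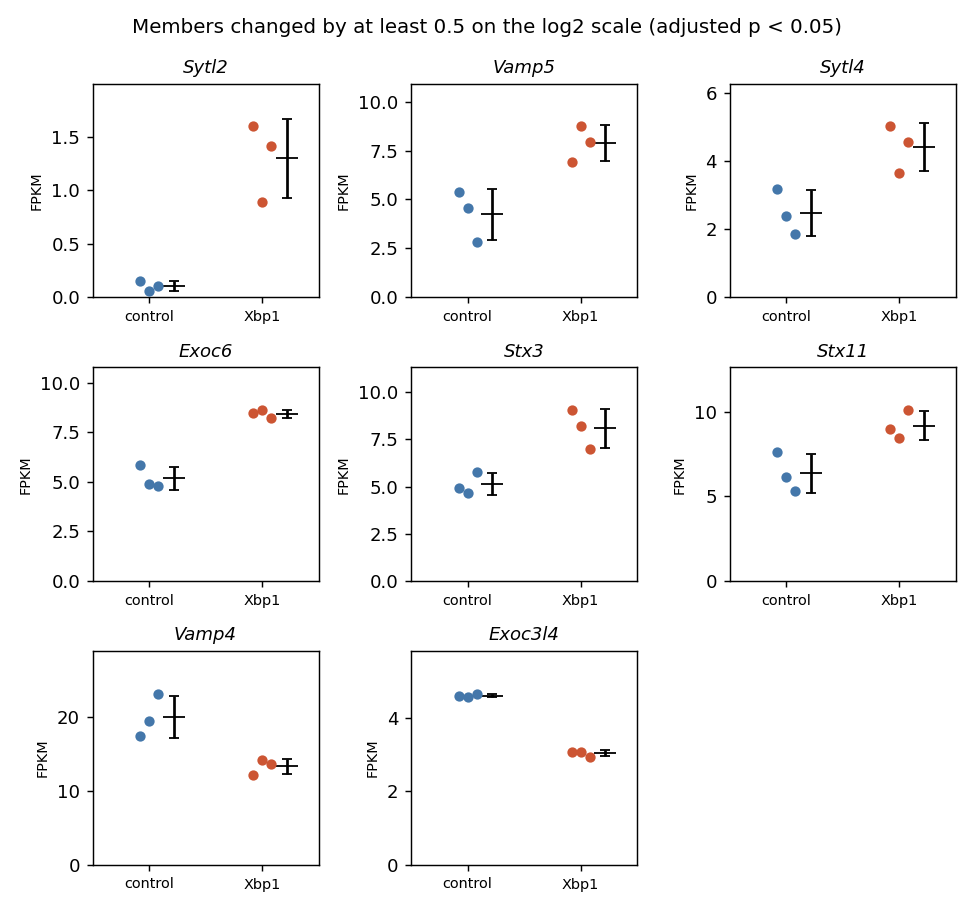
FPKM (vertical axis, from 0) of 8 members with an adjusted p under 0.05 and a log2FC of at least 0.5 in size. Points are libraries (blue, control siRNA; red, *Xbp1* siRNA) and black marks the mean with SD (n = 3); the conditions do not overlap in any panel, and *Vamp4* and *Exoc3l4* are the 2 that were lower.

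Of all 15 syntaxin (*Stx*) genes, 13 were tested, 6 of which rose and 2 fell, beside 20.2% and 20.2% of all genes tested. *Stx3*, a syntaxin of apical and granule fusion, had 4.93, 4.68 and 5.78 FPKM with control siRNA and 9.04, 8.20 and 6.98 FPKM with *Xbp1* siRNA. All silenced libraries exceeded the controls, and the log2FC was 0.64 (limma, SE 0.13, adjusted p = 0.00539). *Stx11*, a syntaxin needed for the cytotoxic granules of lymphocytes, had 7.61, 6.15 and 5.33 FPKM with control siRNA and 8.998, 8.43 and 10.1 FPKM with *Xbp1* siRNA. The groups were again apart, with a log2FC of 0.53 (limma, SE 0.14, adjusted p = 0.0184). This did not pass without control replicate 2 (adjusted p = 0.0550) or *Xbp1* siRNA replicate 3 (adjusted p = 0.0668).

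The more abundant plasma membrane syntaxin *Stx4* rose by less but with little spread. It had 77.3, 71.1 and 75.3 FPKM with control siRNA and 96.2, 97.4 and 91.0 FPKM with *Xbp1* siRNA, with log2FC = 0.35 (limma, SE 0.045, adjusted p = 7.73e-04). The summed level of all syntaxin genes was 278 ± 2.97 FPKM with control siRNA and 304 ± 10.7 FPKM with *Xbp1* siRNA (SD, n = 3). Among endosomal syntaxins, *Stx7*, of late endosomes, rose from 8.72 ± 1.04 to 12.1 ± 0.630 FPKM, whereas *Stx12* (syntaxin 13), of recycling endosomes, fell from 37.4 ± 1.46 to 29.7 ± 1.82 FPKM (SD, n = 3). Their log2FCs were 0.48 (adjusted p = 0.00618) and −0.33 (limma, adjusted p = 0.00311). *Stx17*, the autophagosomal syntaxin, fell from 6.03 ± 0.154 to 4.76 ± 0.184 FPKM (SD, n = 3), with log2FC = −0.33 (limma, adjusted p = 0.0154), which did not pass without *Xbp1* siRNA replicate 3 (adjusted p = 0.0527).

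*Stx6* and *Stx8*, of the trans-Golgi network and of endosomes, had log2FCs of 0.16 (adjusted p = 0.0450) and 0.24 (limma, adjusted p = 0.0459). Both were at the limit of the test. *Stx6* did not pass without any 1 of the libraries (adjusted p from 0.0642 to 0.119). *Stx8* did not pass without control replicate 1 (adjusted p = 0.0687) or 3 (adjusted p = 0.116) or without *Xbp1* siRNA replicate 1 (adjusted p = 0.136), 2 (adjusted p = 0.0650) or 3 (adjusted p = 0.0760). *Stx1a* and *Stx2*, both of the plasma membrane, had log2FCs of −0.13 (95% interval −0.49 to 0.24) and 0.09 (95% interval −0.15 to 0.33) and did not pass.

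The syntaxins *Stx5*, *Stx16* and *Stx18*, included in the count above, and the *Vti1* and *Bet1* genes are Q-SNAREs that act mostly at the Golgi and the ER. Of these 7 genes, all tested, 1 rose, beside 20.2% of all genes, and its product is known from late endosomes. This gene, *Vti1b*, rose from 71.7 ± 4.36 to 86.4 ± 4.26 FPKM (SD, n = 3), with log2FC = 0.27 (limma, adjusted p = 0.00685). *Stx5*, the syntaxin of ER-to-Golgi transport, had 19.6, 19.9 and 20.2 FPKM with control siRNA and 19.9, 20.9 and 18.7 FPKM with *Xbp1* siRNA. The values overlapped, and the 95% interval of its log2FC was −0.14 to 0.13. *Stx16* (interval −0.06 to 0.16) and *Stx18* (interval −0.20 to 0.16), which act at the trans-Golgi network and the ER, did not pass either. *Bet1l*, of transport within the Golgi, had a log2FC of 0.14 (adjusted p = 0.0524) and *Vti1a* one of 0.26 (limma, adjusted p = 0.219), which passed at 0.45 without control replicate 1 (adjusted p = 0.0117).

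All 9 R-SNAREs were tested, and 2 rose and 1 fell, beside 20.2% and 20.2% of all genes. *Vamp5*, a *Vamp* gene known from muscle, had 5.36, 4.56 and 2.80 FPKM with control siRNA and 6.93, 8.74 and 7.96 FPKM with *Xbp1* siRNA. Control replicate 3 was the lowest library, and the conditions did not overlap. The log2FC was 0.92 (limma, SE 0.23, adjusted p = 0.0147); it was 0.65 without control replicate 3, 1.11 without control replicate 1, 1.01 without *Xbp1* siRNA replicate 1 and 0.84 without *Xbp1* siRNA replicate 2, where it did not pass (adjusted p = 0.0519). *Vamp8*, an endosomal R-SNARE whose gene lies next to *Vamp5* among the coding genes of the RefSeq annotation (CriGri-PICRH-1.0), had 51.0, 42.7 and 39.2 FPKM with control siRNA and 44.6, 43.2 and 44.9 FPKM with *Xbp1* siRNA. These overlapped, and the log2FC was 0.01 (95% interval −0.20 to 0.22). The share of *Vamp5* in the summed FPKM of both was 8.62% ± 1.68 with control siRNA and 15.1% ± 1.69 with *Xbp1* siRNA (SD, n = 3).

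*Vamp4*, an R-SNARE of the trans-Golgi network and recycling endosomes, fell. It had 17.4, 19.4 and 23.0 FPKM with control siRNA and 12.1, 14.1 and 13.6 FPKM with *Xbp1* siRNA. The highest silenced library stayed below the lowest control library, and the log2FC was −0.58 (limma, SE 0.11, adjusted p = 0.00469). *Vamp3* (cellubrevin), which acts with *Stx4* in recycling to the cell surface, rose from 62.3 ± 0.761 to 72.9 ± 1.68 FPKM (SD, n = 3), with log2FC = 0.23 (limma, adjusted p = 0.00162). The remaining R-SNAREs did not pass, among them *Ykt6* and *Vamp7*, which have known roles in exosome release. *Ykt6* had a log2FC of 0.02 (95% interval −0.06 to 0.11) and *Vamp7*, of lysosomes and late endosomes, one of 0.21 (95% interval −0.17 to 0.59). *Sec22b* had −0.15 (limma, adjusted p = 0.0648), and −0.20 without *Xbp1* siRNA replicate 3, where it passed (adjusted p = 0.0308). *Vamp1* and *Vamp2*, known from synaptic vesicles, had 0.39 (95% interval −0.35 to 1.13) and 0.03 (95% interval −0.16 to 0.23). Summed over the R-SNAREs the level was 345 ± 5.92 FPKM with control siRNA and 344 ± 2.72 FPKM with *Xbp1* siRNA (SD, n = 3).

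Of the 3 members of the SNAP-25 family tested, 0 passed in limma, also at an unadjusted p under 0.05. *Snap23*, the ubiquitous partner of *Stx4*, had 9.18, 10.7 and 12.8 FPKM with control siRNA and 8.54, 7.94 and 9.77 FPKM with *Xbp1* siRNA, with overlap. Its log2FC was −0.31 (95% interval −0.62 to 0.01, adjusted p = 0.110, limma). It passed without control replicate 1 (log2FC −0.42, adjusted p = 0.0371). *Snap29*, which acts with *Stx17* in autophagosome fusion, had −0.13 (95% interval −0.27 to 0.00) and *Snap47* had 0.06 (95% interval −0.19 to 0.31).

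The disassembly machinery did not move as a unit. *Nsf* had 158, 160 and 162 FPKM with control siRNA and 130, 131 and 128 FPKM with *Xbp1* siRNA. The conditions were far apart relative to the spread within each, and the adjusted p was the smallest among the members, with a log2FC of −0.30 (limma, SE 0.029, adjusted p = 1.74e-04). *Napa*, the gene of the adaptor α-SNAP, had 29.1, 28.0 and 26.6 FPKM with control siRNA and 24.0, 19.0 and 21.6 FPKM with *Xbp1* siRNA. *Napg*, the gene of γ-SNAP, had 9.62, 11.1 and 11.03 FPKM with control siRNA and 12.8, 14.5 and 13.1 FPKM with *Xbp1* siRNA. The 2 adaptor genes thus moved in opposite directions without overlap, by −0.38 (adjusted p = 0.0104) for *Napa* and 0.35 (limma, adjusted p = 0.0122) for *Napg* on the log2 scale. *Napg* made up 27.5% ± 2.33 of their summed FPKM with control siRNA and 38.7% ± 4.31 with *Xbp1* siRNA (SD, n = 3).

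Syntaxin-binding proteins were split as well, with members that rose and members that fell. *Stxbp3* (Munc18c), the partner of *Stx4*, had 19.1, 20.4 and 16.9 FPKM with control siRNA and 14.5, 16.9 and 14.0 FPKM with *Xbp1* siRNA. Here the lowest control and the highest silenced library met, and the log2FC of −0.31 (limma, adjusted p = 0.0363) did not pass without control replicate 1 (adjusted p = 0.0912) or 2 (adjusted p = 0.113) or without *Xbp1* siRNA replicate 1 (adjusted p = 0.103) or 3 (adjusted p = 0.114).

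*Stxbp5* (tomosyn), which competes with R-SNAREs for syntaxins, fell from 20.7 ± 0.808 to 16.5 ± 1.54 FPKM (SD, n = 3), with log2FC = −0.33 (limma, adjusted p = 0.0117). *Stxbp6* (amisyn), which also occupies the R-SNARE site, rose from 7.11 ± 0.778 to 9.12 ± 0.826 FPKM (SD, n = 3), with log2FC = 0.36 (limma, adjusted p = 0.0312). This did not pass without control replicate 1 (adjusted p = 0.0853) or 2 (adjusted p = 0.0959) or without *Xbp1* siRNA replicate 2 (adjusted p = 0.0978) or 3 (adjusted p = 0.0568). *Stxbp4* had 0.460, 0.583 and 0.469 FPKM with control siRNA and 0.708, 0.847 and 1.26 FPKM with *Xbp1* siRNA. These values did not overlap, but the log2FC of 0.75 did not pass (95% interval 0.12 to 1.39, adjusted p = 0.0602, limma), and *Stxbp4* was the one member with a change of 0.5 or more that did not.

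The exocyst is built from the products of *Exoc1* to *Exoc8*, with *Exoc6* and *Exoc6b* as alternative genes for the SEC15 subunit. Of these 9 genes, 3 rose and 2 fell, beside 20.2% and 20.2% of all genes. *Exoc6* had 5.82, 4.87 and 4.81 FPKM with control siRNA and 8.46, 8.61 and 8.22 FPKM with *Xbp1* siRNA. It was 163% of the control mean, with a log2FC of 0.70 (limma, SE 0.097, adjusted p = 0.00101) and no overlap. *Exoc6b* had 4.74, 4.58 and 4.36 FPKM with control siRNA and 5.90, 6.26 and 6.003 FPKM with *Xbp1* siRNA, with log2FC = 0.40 (limma, SE 0.085, adjusted p = 0.00758). Both genes of this subunit were thus higher, and *Exoc6* made up 53.0% ± 1.87 of their sum with control siRNA and 58.2% ± 0.605 with *Xbp1* siRNA (SD, n = 3). SEC15 is the subunit that binds RAB11 on the vesicle, and its gene *Rab11a* rose from 39.7 ± 0.715 to 47.8 ± 1.75 FPKM (SD, n = 3), with log2FC = 0.27 (limma, adjusted p = 0.00196).

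The SEC6 and SEC8 subunits went the other way. *Exoc3* (SEC6) had 29.0, 29.3 and 28.6 FPKM with control siRNA and 21.8, 22.6 and 23.6 FPKM with *Xbp1* siRNA, with log2FC = −0.35 (limma, SE 0.048, adjusted p = 9.02e-04). *Exoc4* (SEC8) had 12.98, 15.2 and 14.6 FPKM with control siRNA and 9.96, 10.5 and 11.1 FPKM with *Xbp1* siRNA, with log2FC = −0.43 (limma, SE 0.080, adjusted p = 0.00421). Neither overlapped between conditions. *Exoc2* (SEC5), which binds RAL GTPases, was the highest exocyst gene and rose from 41.3 ± 0.321 to 47.5 ± 2.18 FPKM (SD, n = 3), with log2FC = 0.20 (limma, adjusted p = 0.00859). Of the RAL genes, *Ralb* fell from 64.8 ± 2.57 to 52.0 ± 3.18 FPKM (SD, n = 3), with log2FC = −0.32 (limma, adjusted p = 0.00307), and *Rala* had a log2FC of 0.07 and did not pass (adjusted p = 0.554). *Arf6*, a GTPase that binds SEC10, had a log2FC of −0.19 (limma, adjusted p = 0.00275).

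The other subunits did not pass. *Exoc1* (SEC3) had a log2FC of −0.09 (95% interval −0.21 to 0.03), although its libraries did not overlap, and *Exoc8* (EXO84) had −0.25 (95% interval −0.47 to −0.02, adjusted p = 0.0830, limma), again without overlap. *Exoc8* passed without *Xbp1* siRNA replicate 1 (log2FC −0.32, adjusted p = 0.0476). *Exoc5* (SEC10) and *Exoc7* (EXO70), whose product binds the plasma membrane, had 0.11 (95% interval −0.05 to 0.26) and −0.04 (95% interval −0.18 to 0.10). The summed level of the exocyst group was 157 ± 0.221 FPKM with control siRNA and 154 ± 3.21 FPKM with *Xbp1* siRNA (SD, n = 3), and the values overlapped.

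Of the genes related to *Exoc3*, *Exoc3l4* fell. It had 4.60, 4.57 and 4.65 FPKM with control siRNA and 3.08, 3.08 and 2.94 FPKM with *Xbp1* siRNA. The values were nearly the same within each condition, and the log2FC was −0.59 (limma, SE 0.095, adjusted p = 0.00215). *Exoc3l2* had 1.09 ± 0.140 against 0.926 ± 0.161 FPKM (SD, n = 3) and did not pass (95% interval of the log2FC −0.71 to 0.27).

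**Figure D4:**
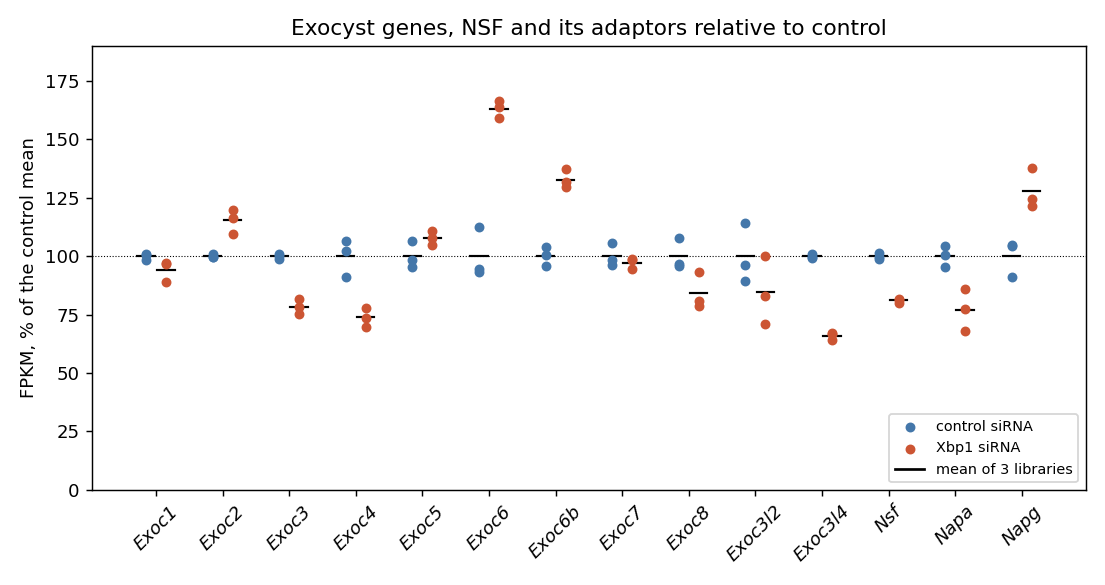
FPKM of exocyst genes, *Nsf*, *Napa* and *Napg* in each library as a percentage of the control mean of that gene (vertical axis; blue, control siRNA; red, *Xbp1* siRNA; black bars, means of 3 libraries). *Exoc6* (163%), *Exoc6b* (133%) and *Napg* (128%) lie furthest above the control mean, and *Exoc3l4* (65.9%), *Exoc4* (73.8%) and *Napa* (77.1%) furthest below. *Exoc2* also rose, and *Exoc3* and *Nsf* also fell.

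Members were also set beside other genes of membrane fusion, a list of 79 genes of which 75 were in the files and 52 were tested. Of these, 16 rose and 12 fell, which is 30.8% and 23.1%, beside 20.2% and 20.2% of all genes, and 1 was called higher (*Rab27b*) and 0 lower, beside 2.69% and 2.5% of all genes. The median log2FC over those tested was 0.04, and the counts of the lists that follow rest on few genes each. Conserved oligomeric Golgi (COG) tether genes counted 4 risen and 1 fallen of 8, genes of the Dsl1, GARP and EARP tethers 1 and 1 of 8, and genes of SM proteins, HOPS and CORVET, the endosomal tethers, 3 and 4 of 13. SNAREs outside the rule, listed together with the adaptor gene *Napb*, counted 4 and 1 of 7 genes, and GTPases that bind the exocyst or synaptotagmin-like proteins 3 and 3 of 9. A list of 34 calcium sensors, priming factors and related genes held synaptotagmins, extended synaptotagmins and complexins, among others. Of this list 7 genes were tested and 12 were at 0 in all libraries. Among those tested 1 rose and 2 fell, both of them extended synaptotagmins (*Esyt1* and *Esyt2*). Chosen after their values were seen, as were *Rab27a*, *Rab11a*, *Rab8a*, *Rala*, *Ralb* and *Arf6*, *Use1*, an ER SNARE, had a log2FC of 0.82 (adjusted p = 0.00171) and *Scfd2*, an SM-type protein, one of −0.82 (limma, adjusted p = 6.01e-04).

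**Figure D5:**
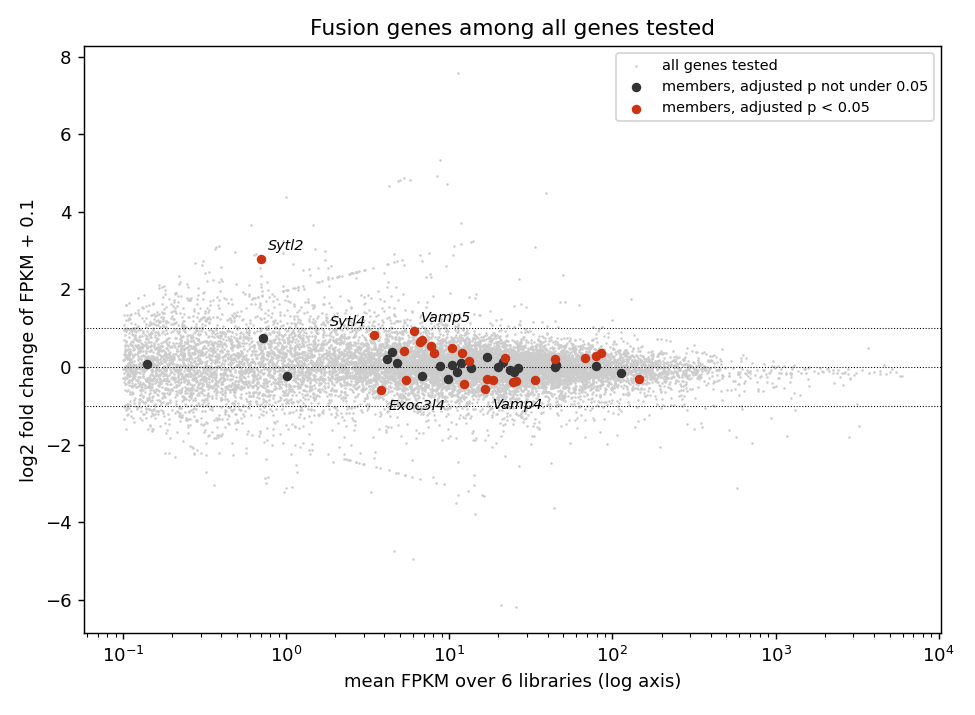
Log2 fold change of FPKM + 0.1 (vertical axis) against mean FPKM over the 6 libraries (horizontal log axis) for the 14361 genes tested (grey) and 49 members (red, adjusted p under 0.05; black, others; dotted lines at −1, 0 and 1). *Sytl2*, at a mean of 0.703 FPKM, is the member beyond 1, and the other members lie between the dotted lines at −1 and 1.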

How the data were processed

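Libraries were prepared with a stranded mRNA kit and sequenced on an Illumina instrument. The authors deposited FPKM values, 1 library per file. HISAT2 2.1.0 and Cuffdiff 2.2.1 are named in the submitters' processing notes; which genome build and annotation were used is not given in the sources used here, and no coordinates are printed. Read totals are not stated, so depth is unknown apart from the steps described next. Of 3065 genes with a mean of up to 0.8 FPKM and at least 4 values above 0, 70.7% had values on whole multiples of 1 step (tolerance 0.03 reads plus 0.005 per read), and the steps gave library depths of 94.0% to 116% of control replicate 1. Intervals from these reads cover counting error only.

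FPKM values are not counts, so the DESeq2 test of the study's methods was replaced by limma 3.58.1 in R 4.3.3 (lmFit, eBayes with trend) on log2(FPKM + 0.1), fitted to genes whose mean over the libraries reached 0.1 FPKM. With 3 libraries against 3, an exact permutation test of a single gene cannot give a p below 0.1 and was not used. The procedure was also run on values simulated with independent normal noise around the mean of each gene. The limma model assumes such noise, so this run cannot test how well the assumption holds for these libraries. Python 3.11.15 was used for the other steps. Members, gene lists and tests were chosen with earlier results of these data known, and the pairs whose shares are given were chosen after their values were seen. Values of 2 members are not reported here, though they enter the counts and sums. Given in full are the other members with an adjusted p under 0.05 and a log2 fold change of at least 0.5 in size, and others where a group turned on them. Symbols of all 59 members were found in RefSeq. Promoter motifs were not searched, since no sequences were used here. Results were recomputed with other pseudocounts (1 and 0.01), with the filter raised to 1 FPKM or left out, with median-ratio and quantile scaling, without the trend, with a fold limit of 0.58, with a replicate block and without each library in turn.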

Additional observations from a re-analysis of the deposited data

How the results depend on the processing

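Of 377 values recomputed for the 27 members that rose or fell, 0 changed direction and 31 no longer passed; 19 members passed under every alternative that gave a value. Those that did not were *Sytl4*, *Vamp5*, *Stx11*, *Stx17*, *Stx6*, *Stx8*, *Stxbp3* and *Stxbp6*. Conversely, 6 members that did not pass (*Bet1l*, *Exoc8*, *Sec22b*, *Snap23*, *Stxbp4* and *Vti1a*) passed under 1 or 2 alternatives each, *Bet1l* with the filter raised to 1 FPKM or quantile scaling, *Exoc8* also with quantile scaling and *Stxbp4* without the trend. *Sytl2* gave no value when the filter was raised to 1 FPKM, which left 0 members called higher and 242 genes in all. The 386 higher and 359 lower calls over all genes became 114 and 205 with a pseudocount of 1, and with a fold limit of 0.58 the numbers were 1014 and 972, with 6 members higher and 1 lower. Leaving out each library gave 1 to 3 members called higher, beside 329 to 380 of all genes, of which 14327 to 14376 were tested. *Sytl4* and *Vamp5* were added without control replicate 1 and *Vamp5* without *Xbp1* siRNA replicate 1. The median log2 fold change of the members then ran from 0.029 to 0.098. The log2 fold change of *Xbp1* lay between −3.89 and −3.28 throughout.

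Libraries of the same number were not taken as pairs, since their deviations correlated across genes with r of −0.03, −0.03 and −0.01. With the replicate number as a block, 1 member was called higher and 0 lower, beside 363 and 353 of all 14361 genes tested. By adjusted p 15 members rose and 11 fell, beside 19.3% and 20% of all genes. In this fit *Stx6* (adjusted p = 0.0747) and *Stxbp6* (adjusted p = 0.0575, limma) did not pass, while *Snap23* did (adjusted p = 0.0473).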
